A study of Mus musculus with 2 samples.

Results

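Atoh7-positive neurogenic progenitors were examined in single-cell RNA-seq libraries of the mouse eye cup at e15.5. They were chosen by their own transcripts: at least 2 UMIs (unique molecular identifiers, 1 per captured RNA molecule) of Atoh7, UMIs in at least 3 of the 6 neurogenic genes Dll3, Dll1, Hes6, Neurog2, Gadd45a and Mfng, and no UMI of the fate genes Pou4f2, Crx, Tfap2b and Lhx1. A total of 1698 cells met this rule, of 20430 cells that passed the filters and 26897 barcodes in all. The control library was Myrf fl/fl and held 688 of these cells. The mutant library was Rx>cre Myrf fl/fl and held 1010. Both genotypes carry the floxed Myrf alleles, and the mutant adds a Cre transgene driven by Rx, which acts in the early eye field that forms retina and retinal pigment epithelium alike. Each library came from 3 pooled eye cups after the cornea, lens and optic nerve were taken off, so that single embryos cannot be told apart. With 1 library per genotype no difference could be tested. Intervals are 95% exact intervals of the counts and cover counting error only.

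Atoh7 is a basic helix-loop-helix (bHLH) transcription factor that is switched on in retinal progenitors around their last division and is required for retinal ganglion cells. Cells with Atoh7 also give rise to cones, horizontal cells and amacrine cells. In this state a cell puts Notch ligands such as Dll1, Dll3 and Dll4 on its surface or in its secretory pathway, while its neighbours answer through Notch receptors, Rbpj and the repressors Hes1 and Hes5, which hold them as progenitors. Proneural bHLH factors bind short DNA sites called E-boxes.

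The promoters of genes that chose or divided these cells are shown because all 4 belong to the bHLH and Notch pathways. They are RefSeq promoters of GRCm38.p6, from 250 bases before to 50 bases after the start, 5′ to 3′ on the strand of the gene. Capitals mark the E-boxes that were searched, and E-boxes of other sequence are not marked. The E-boxes searched were CAGATG, which is not a palindrome, the palindrome written CAGCTG, and the palindrome written CACGTG. Atoh7 lies at chr10:63099535-63099834 on the plus strand, Dll3 at chr7:28301736-28302035 on the minus strand, Neurog2 at chr3:127632886-127633185 on the plus strand and Ptf1a at chr2:19445413-19445712 on the plus strand.
Atoh7: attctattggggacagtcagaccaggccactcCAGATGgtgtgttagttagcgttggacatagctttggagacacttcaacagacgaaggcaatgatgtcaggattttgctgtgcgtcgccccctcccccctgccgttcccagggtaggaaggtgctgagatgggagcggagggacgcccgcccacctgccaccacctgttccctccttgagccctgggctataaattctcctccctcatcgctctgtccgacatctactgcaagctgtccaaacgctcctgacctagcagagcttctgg
Dll3: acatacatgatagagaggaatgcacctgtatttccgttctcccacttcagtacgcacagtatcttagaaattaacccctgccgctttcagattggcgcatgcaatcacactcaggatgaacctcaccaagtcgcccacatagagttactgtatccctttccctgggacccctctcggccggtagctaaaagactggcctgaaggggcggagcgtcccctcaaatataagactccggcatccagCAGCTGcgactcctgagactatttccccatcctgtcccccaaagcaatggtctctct
Neurog2: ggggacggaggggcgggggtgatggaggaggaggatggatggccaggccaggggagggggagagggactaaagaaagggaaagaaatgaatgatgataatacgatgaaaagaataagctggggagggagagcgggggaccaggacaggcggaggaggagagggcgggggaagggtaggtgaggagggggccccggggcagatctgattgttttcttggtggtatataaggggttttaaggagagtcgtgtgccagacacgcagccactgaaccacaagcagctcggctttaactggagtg
Ptf1a: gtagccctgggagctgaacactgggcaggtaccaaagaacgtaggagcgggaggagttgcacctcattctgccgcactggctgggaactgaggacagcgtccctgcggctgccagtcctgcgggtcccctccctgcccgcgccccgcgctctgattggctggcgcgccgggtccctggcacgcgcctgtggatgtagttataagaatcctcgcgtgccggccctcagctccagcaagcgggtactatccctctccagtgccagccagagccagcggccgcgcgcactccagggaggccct
Atoh7 held 1 CAGATG and Dll3 held 1 CAGCTG, whereas the windows of Neurog2 and Ptf1a held none of the 3 sites. Both strands were searched. Of 32851 promoters of the same length, 17.2% held CAGATG, 16.3% CAGCTG, 7.15% CACGTG and 35.7% any of them. Mfng was not matched.

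The libraries held 13017 barcodes and 132436812 UMIs in the control and 13880 barcodes and 135678970 UMIs in the mutant, and 9722 and 10708 cells passed the filters. The median was 10424 UMIs per neurogenic cell in the control and 10176.5 in the mutant. Myrf, the targeted gene, gave 432 UMIs (3.42 CPM, UMIs of a gene per 1000000 UMIs summed over the cells) over the control cells and 154 UMIs (1.19 CPM) over the mutant cells, which goes with the labels. In the neurogenic cells it gave 3 and 11 UMIs, too few to compare. Whether these 3′ tags lie in the floxed part is not given in the sources used here. The libraries differed in the sex of their embryos. Of the neurogenic cells, 91.6% in the control and 29.6% in the mutant had a UMI of Xist and none of 4 Y-linked genes, so genotype and sex cannot be told apart. The libraries had 69 barcode strings in common, 1 of them among the neurogenic cells. Atoh7 UMIs were also found in barcodes of other cell types, and free RNA and doublets cannot be told apart as their source: after each cell was thinned to 5000 UMIs, Atoh7 was found in 5.43% (control) and 10.4% (mutant) of erythroid cells and in 7.24% and 11.6% of mesenchymal cells, at unthinned median depths of 17706.5, 17249.5, 14210.5 and 14573 UMIs.

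The genes of the rule are described and were not tested, because they selected the cells. Atoh7 had a median of 73 UMIs per cell in the control (lowest 2, highest 370) and 69 in the mutant (2 to 371), or 7429 and 6676 CPM. These cells held 56.3% and 59.7% of the Atoh7 UMIs in the filtered cells of their libraries. Neurog2, a proneural bHLH factor, was at 1195 and 1113 CPM and had a UMI in 70.8% and 71.6% of the cells. Its distribution was wide, with a lower quartile of 0, a median of 6 and a highest value of 77 (control) and 76 UMIs (mutant). Hes6, which counteracts Hes1, was at 1765 and 1775 CPM. Gadd45a, a growth arrest gene, was at 1182 and 1054 CPM. The ligands Dll1 (95.7 and 89.9 CPM) and Dll3 (129 and 139 CPM) and the glycosyltransferase Mfng, which modifies Notch (135 and 131 CPM), had medians of 1 UMI per cell. All 6 neurogenic genes were found in 23.7% and 23.4% of cells and only the minimum of 3 in 20.8% and 20.4%. The ratios of mutant to control of these genes lay between 0.892 (Gadd45a) and 1.08 (Dll3).

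Cells near the thresholds differed from the group as a whole. The 28 control cells with exactly 2 Atoh7 UMIs had 260 CPM of the progenitor gene Hes1, compared with 334 CPM in the 74 cells that missed the rule with 1 Atoh7 UMI and 114 CPM over all 688. In the mutant these values were 300 (43 cells), 362 (130 cells) and 117 CPM. Olig2, a bHLH factor of late progenitors, was at 0 CPM with 2 Atoh7 UMIs, 5.16 CPM with 1 and 129 CPM over all cells of the control, and at 6.6, 1.78 and 127 CPM in the mutant. Cells with exactly 3 of the 6 neurogenic genes had Olig2 at 10.3 and 13.3 CPM, and cells with 2 of them had 6.43 and 0.56 CPM. Hes1 was at 240 and 247 CPM with 3 of them and at 202 and 335 CPM with 2, so the order across this cut differed between the libraries. Cells near the thresholds thus had more Hes1 and less Olig2 than the group as a whole, in both libraries.

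Neurogenic cells made up 7.08% of the cells that passed the filters in the control (6.57 to 7.61) and 9.43% in the mutant (8.88 to 10.0), a ratio of 1.33 (1.21 to 1.47). The denominator differed as well: mesenchymal cells, defined by at least 2 UMIs each of Col1a1, Col1a2 and Col3a1, took 33.4% of control cells and 22.6% of mutant cells. Without cells of the mesenchymal and erythroid gates the ratio was 1.11. As a share of 4 gated populations, namely the neurogenic cells, Atoh7-negative progenitors, Pou4f2-positive cells and Crx-positive cells, they took 18.0% (16.8 to 19.2) and 20.4% (19.3 to 21.6), which gave 1.14 (1.03 to 1.25). After thinning, the ratios were 1.38 over all cells and 1.10 (0.992 to 1.22) over the 4 populations, so the interval of the latter held 1. Of 1357 control and 1880 mutant cells that met the Atoh7 and neurogenic criteria, 50.7% and 53.7% had no fate gene. Pou4f2, the ganglion cell factor, was found in 29.3% and 25.9%, Crx, the photoreceptor factor, in 14.5% of each, Tfap2b, an amacrine and horizontal cell factor, in 9.51% and 10.4%, and Lhx1, a horizontal cell factor, in 0.737% and 0.585%. Their intervals overlapped between the libraries, and 4.57% of cells in each had UMIs of more than 1 of the 4. How dissection or sex moved these shares was not tested.

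**Figure D1:**
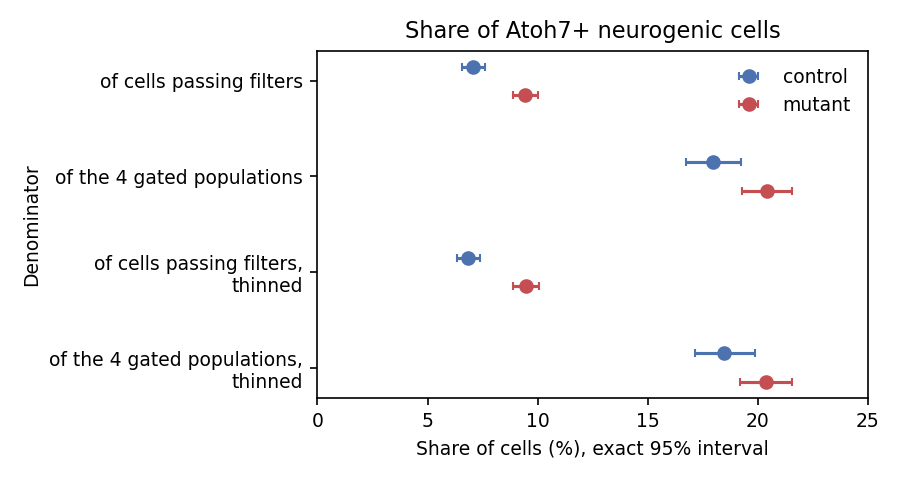
Share of Atoh7-positive neurogenic cells (horizontal axis, percent of cells) for 4 denominators, as deposited and with every cell thinned to 5000 UMIs, with points for each library and bars for the exact 95% interval of counting error. The mutant share lies to the right for every denominator, from 9.43% against 7.08% of all filtered cells to 20.4% against 18.0% of the 4 gated populations, where the intervals come close. After thinning, the intervals over the 4 populations overlap (17.2 to 19.9 in the control and 19.2 to 21.6 in the mutant).

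To place the state between progenitors and neurons, the neurogenic cells were compared with those 3 populations inside each library. Progenitors (2405 control, 3012 mutant cells) had no Atoh7 UMI, UMIs in at least 3 of 5 progenitor genes, Fgf15, Sfrp2, Hes1 and Ccnd1 among them, and in at most 2 neurogenic genes. Pou4f2-positive cells (458 and 519) and Crx-positive cells (278 and 407) had at least 2 UMIs of that gene and none of the other fate genes. Genes used by these rules were left out of the counts. Against progenitors, 446 of 11450 control genes with at least 100 UMIs were at least 2-fold higher (3.9%) and 1457 were at least 2-fold lower (12.7%). In the mutant these were 460 of 11737 (3.92%) and 1407 (12%), and 352 higher and 1115 lower genes were past the fold in both libraries. The median log2 ratio over all tested genes was -0.08 and -0.11. Against Pou4f2-positive cells the higher and lower shares were 11.4% and 12% in the control and 11.9% and 12.6% in the mutant. Against Crx-positive cells they were 8.04% and 8.36% in the control and 7.69% and 8.98% in the mutant. Some cells of the progenitor gate had few retinal transcripts: 18.3% of them in the control and 12.6% in the mutant, and 11.6% and 9.9% of the neurogenic cells, had fewer than 2 of 4 retinal genes, Pax6, Six6 and Rax among them. When such progenitors were left out, the lower genes numbered 687 and 798, with 406 and 475 higher. In the mesenchymal gate were 353 control and 333 mutant progenitors, compared with 22 and 26 neurogenic cells. All 9 mesenchymal genes were past 2-fold below progenitors in both libraries, beside 12.7% and 12% of all genes. So were 8 and 6 of 8 pigment epithelial genes. The part of mesenchymal cells in the ratios of single genes to progenitors was not tested.

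Notch ligand, receptor and effector genes did not move as one. Dll4, a ligand that the rule did not use, was at 86.6 CPM in the control cells and 80.2 CPM in the mutant cells, compared with 0.967 and 0.630 CPM in progenitors, 1.38 and 1.44 CPM in Pou4f2-positive cells and 26.3 and 21.0 CPM in Crx-positive cells. Among these populations, Dll4 was therefore highest in the neurogenic cells of either library. After thinning, Dll4 had a UMI in 25.3% and 27.3% of them (39.1% and 39.3% unthinned), compared with 0.194% and 0.622% of erythroid cells. Of the 7 ligand, fringe and ligand-processing genes outside the rule that could be counted, Dll4 was the only one past 2-fold against progenitors, beside 3.9% and 3.92% of all genes. Jag1 (7.57 and 5.30 CPM), Lfng (25.8 and 27.7 CPM) and Mib1, the ligase that makes ligands active (73.8 and 69.4 CPM), stayed within it. The receptor Notch1 was at 220 and 237 CPM, 2.65 and 2.52 times the progenitor level, whereas Notch2 (12.1 and 11.1 CPM) was at 0.389 and 0.432 and Notch3 (3.91 and 4.96 CPM) at 0.173 and 0.220 times that level. Rbpj, the DNA-binding partner of Notch, was at 355 and 367 CPM and 4.51 and 3.91 times progenitors. Hes5 was at 1086 and 1219 CPM, 2.53 and 2.30 times progenitors, and Hes1, one of the genes of the progenitor rule, was at 114 and 117 CPM. The ratios of Notch1, Rbpj and Hes5 were above 1 and those of Notch2 and Notch3 below 1 in both libraries. The progenitor gate also held mesenchymal cells, and their part in the Notch2 and Notch3 ratios was not tested.

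Proneural factors differed widely from the progenitor level. Of 8 genes of this list outside the rule, 7 had enough UMIs to be compared. All 7 were past 2-fold, but most passed the minimum of 100 UMIs through the neurogenic cells, where they are high, so this count and those of the other lists against progenitors are descriptions. Neurod1, a neuronal and photoreceptor bHLH factor, was at 462 and 440 CPM, compared with 1.18 and 2.64 CPM in progenitors, 40.4 and 60.8 CPM in Pou4f2-positive cells and 1594 and 1702 CPM in Crx-positive cells. Olig2 was at 129 and 127 CPM, with 9 and 4 UMIs among all progenitors, 0.413 and 1.91 CPM in Pou4f2-positive and 4.50 and 13.3 CPM in Crx-positive cells. Of these 4 populations Olig2 and Dll4 were highest in the neurogenic cells, whereas Neurod1 was highest in the Crx-positive cells. Ptf1a, the bHLH factor of amacrine and horizontal precursors, was at 111 and 112 CPM, compared with 0.501 and 1.76 CPM in progenitors, 4.54 and 6.34 CPM in Pou4f2-positive and 7.88 and 7.17 CPM in Crx-positive cells, and amacrine and horizontal cells were not gated. Insm1, a zinc finger factor of differentiating progenitors, was at 325 and 303 CPM, compared with 21.7 and 23.4 CPM in progenitors. Neurod4 was at 31.8 and 48.2 CPM, far under the 500 and 531 CPM of the Crx-positive cells.

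Fate genes that the rule did not exclude were present at low, intermediate or high levels. Of the ganglion cell list, 11 of 14 tested genes were past 2-fold above progenitors in each library, beside 3.9% and 3.92% of all genes, and 10 of 16 were past 2-fold below Pou4f2-positive cells, beside 12% and 12.6%. Onecut1, a factor of horizontal, cone and ganglion precursors, was at 52.5 and 41.9 CPM, compared with 6.88 and 4.31 CPM in Pou4f2-positive and 39.0 and 27.1 CPM in Crx-positive cells. Dlx1 and Dlx2, homeobox genes of ganglion and amacrine precursors, were at 74.3 and 73.8 CPM and at 141 and 142 CPM, compared with 90.4 and 83.6 CPM (Dlx1) and 79.8 CPM in both libraries (Dlx2) in Pou4f2-positive cells. Isl1, a ganglion cell factor, was at only 44.1 and 28.6 CPM, compared with 1178 and 1134 CPM in Pou4f2-positive cells. Otx2, which directs photoreceptor and bipolar fates, was at 424 and 414 CPM, between 21.9 and 14.8 CPM in progenitors and 1285 and 1400 CPM in Crx-positive cells. Prdm1, which favours photoreceptor over bipolar fate, was at 48.2 and 48.7 CPM, compared with 465 and 464 CPM in Crx-positive cells. After thinning, Otx2 had a UMI in 50.1% and 50.7% of neurogenic cells, compared with 1.36% and 3.53% of erythroid cells, and Isl1 in 4.67% and 4.97%, compared with 0.969% and 2.28%. The unthinned shares were 56.7% and 58.3% for Otx2 and 6.83% and 8.32% for Isl1. Neuronal genes lay between progenitors and Pou4f2-positive cells: 16 of 16 tested genes in the control and 16 of 17 in the mutant were past 2-fold above progenitors, and 17 of 17 were past 2-fold below Pou4f2-positive cells in both. Against Crx-positive cells, 3 of 15 were past 2-fold higher and 3 lower in the control, and 2 and 3 of 17 in the mutant. Of all genes, 8.04% were higher and 8.36% lower there in the control, and 7.69% and 8.98% in the mutant. Tubb3, a neuronal tubulin, was at 704 and 682 CPM, between 17.3 and 26.7 CPM in progenitors and 4393 and 4260 CPM in Pou4f2-positive cells. Progenitor genes were partly retained: 6 of 13 tested genes were past 2-fold below progenitors in each library, beside 12.7% and 12% of all genes, among them Sox9 (66.3 and 68.4 CPM, 0.375 and 0.329 times), while Rax (395 and 395 CPM, 0.992 and 0.906 times) and Pax6 (346 and 348 CPM, 1.22 and 1.03 times) were not.

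**Figure D2:**
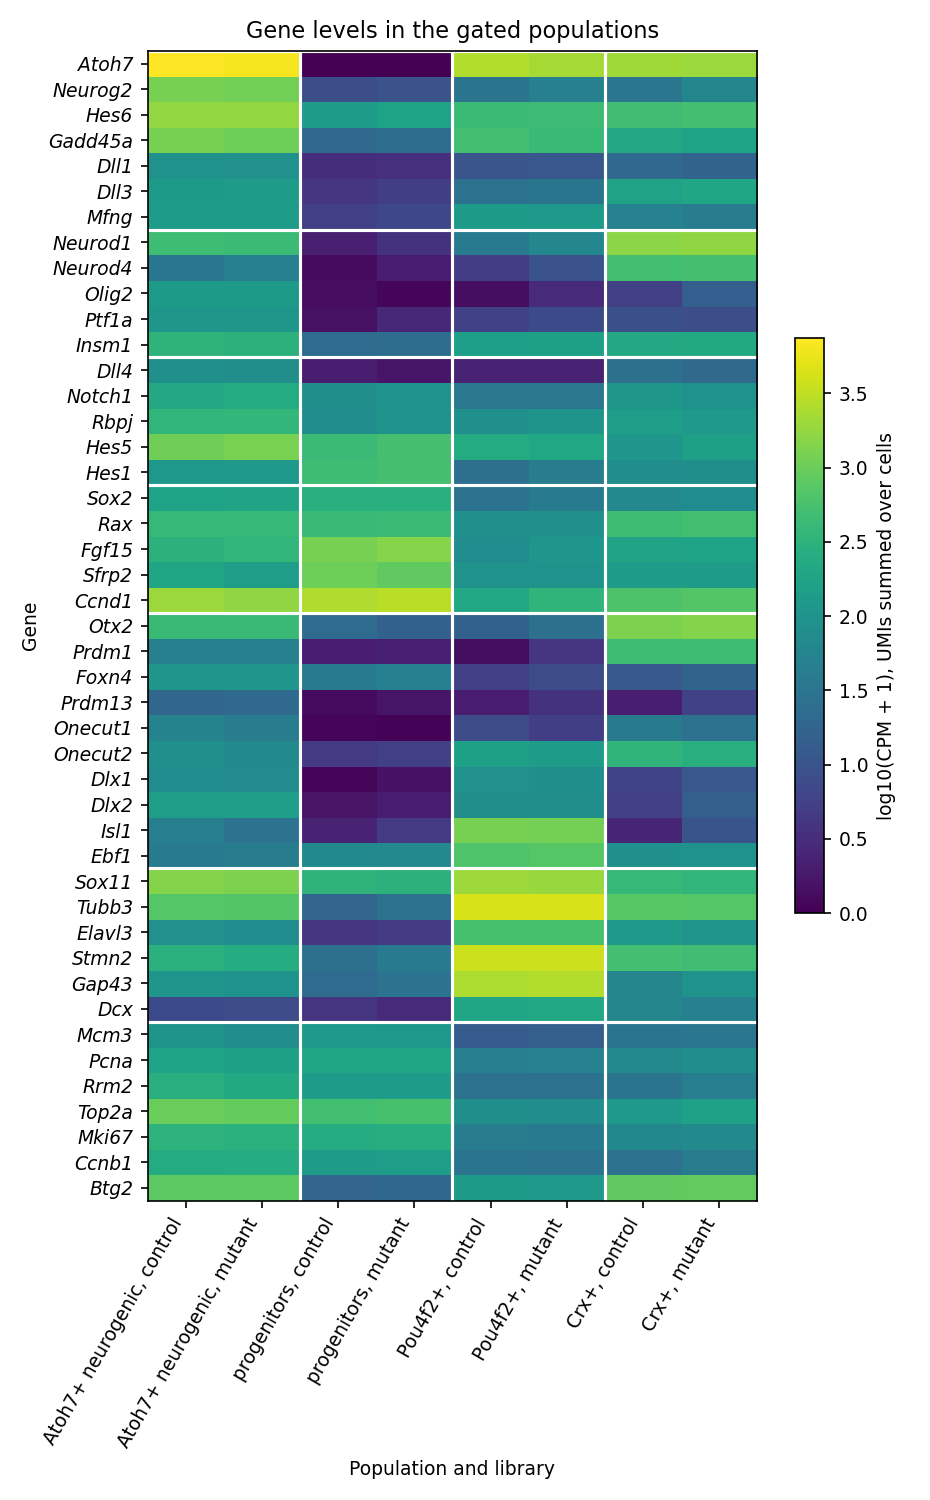
Gene levels, as log10 of CPM plus 1 from UMIs summed over cells, for genes grouped by role (vertical) in 4 populations of each library (columns). The 2 libraries of a population look alike, and Olig2, Dll4 and Ptf1a are brighter in the Atoh7-positive neurogenic columns than in the others (129 and 127, 86.6 and 80.2, and 111 and 112 CPM).

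Ranked over all genes outside the rules in the control library, the 12 largest ratios to progenitors named signalling genes as well as transcription factors. Sstr2, a somatostatin receptor, was at 140 and 149 CPM in the neurogenic cells and had 6 and 8 UMIs in progenitors, a ratio of 651 (298 to 1777) in the control and 590 (299 to 1370) in the mutant. Gal, the neuropeptide galanin, was at 401 and 355 CPM, 203 (156 to 271) and 94.0 (78.4 to 114) times progenitors. Hes2, another Hes family repressor, was at 19.0 and 20.6 CPM, with 1 UMI in progenitors of each library. Insm2 (73.4 and 64.5 CPM) and the keratin gene Krt73 (32.4 and 40.3 CPM) were also among them. The other 7 were Dlx1, Olig2, Neurod1, Onecut1, Dlx2, 3110035E14Rik and Ptf1a. With progenitors restricted to cells with retinal genes, the ratios of Sstr2 were 740 and 488 and those of Gal 181 and 86.3. The 12 smallest ratios held Ttr, a product of pigment and ciliary epithelium, at 1.39 and 5.30 CPM compared with 186 and 148 CPM, and also Col8a1, Slc16a8, Msc, Actc1 and Myf5, of which the last 3 are muscle genes. Some of these moved with the progenitor cells that lacked retinal genes: the ratio of Ttr was 0.00746 (control) and 0.0359 (mutant) with them and 0.201 and 0.260 without them, whereas that of Actc1 was 0.0474 and 0.372 with them and 0.0509 and 0.680 without them.

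The populations with a fate gene were compared in the same way. Most of the genes ranked here also passed the minimum through the group where they are high, so these values are descriptions. Against Pou4f2-positive cells, ranked in the control library, the largest ratios were those of Olig2 (312, 107 to 1516, in the control and 66.4, 40.8 to 117, in the mutant) and Prdm1 (117 and 17.0), and Krt73, Elfn1, Dll4, Hes2, P2rx1, Cck, Otx2, Hist1h3c and Ptf1a were also among the 12. In the mutant Elfn1 had a larger ratio than Olig2, at 83.9. Among the 12 smallest were those of Sez6l, Myt1l, Lrfn5, Resp18, Rph3a, Ret, Islr2, Ppp2r2b, Hecw1, Klhl1 and Scn3b, with Myt1l at 0.252 and 0.513 CPM in the neurogenic cells compared with 39.5 and 37.1 CPM. Against Crx-positive cells Gal led in the control, with a ratio of 89.0 (50.9 to 172) that was 4.03 (3.60 to 4.52) in the mutant, where Crx-positive cells held 332 Gal UMIs rather than 12. Penk, the precursor of enkephalins, was at 168 and 181 CPM compared with 7.50 and 32.9 CPM. The 12 lowest ratios were those of Gsg1, Pdc, Otop3, Lhx4, Gm4792, Dnaic1, Cdhr1, Cngb3, Gnat2, Pgc, Samsn1 and Rbp3, with Gnat2, the cone transducin, at 0.378 and 0.256 CPM compared with 65.3 and 76.7 CPM. Gnat2 and Myt1l were therefore near 0 in the neurogenic cells of both libraries.

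Most neurogenic cells held several transcripts of G2M genes. Cells were thinned to 5000 UMIs, which left 621 control and 946 mutant cells and set aside 67 and 64 shallower ones, and were then grouped by UMIs in at least 4 of 20 G2M genes, or in at least 4 of 23 S phase genes with fewer than 4 G2M genes. The G2M group held 69.1% (65.3 to 72.7) of control and 70.5% (67.5 to 73.4) of mutant neurogenic cells, compared with 58.5% and 62.4% of progenitors, 8.84% and 9.86% of Pou4f2-positive cells and 15.3% and 16.3% of Crx-positive cells. The S group held 11.6% and 10.5%, compared with 31.0% and 29.9% of progenitors. Neither list was reached in 19.3% and 19.0%, compared with 10.5% and 7.64% of progenitors and 83.7% and 82.0% of Pou4f2-positive cells. Intervals of the neurogenic cells and the progenitors did not overlap within either library for any of the 3 groups, and those of the genotypes overlapped for the neurogenic cells. The groups are ranges of a count and not types: 6.92% and 6.66% of neurogenic cells were next to the G2M cut. Free RNA can add to such counts, and its part was not tested. In summed levels, Top2a, a topoisomerase of dividing cells, was at 953 and 891 CPM, compared with 504 and 553 CPM in progenitors, and Hmmr was the 1 of 20 G2M genes past 2-fold above progenitors (2.28 and 2.07 times), a share near the 3.9% and 3.92% of all genes. Btg2, an antiproliferative gene of neurogenic divisions, was at 784 and 779 CPM, 46.0 and 40.6 times progenitors, and Ccnd1, one of the genes of the progenitor rule, was at 1964 and 1718 CPM compared with 2601 and 2960 CPM.

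**Figure D3:**
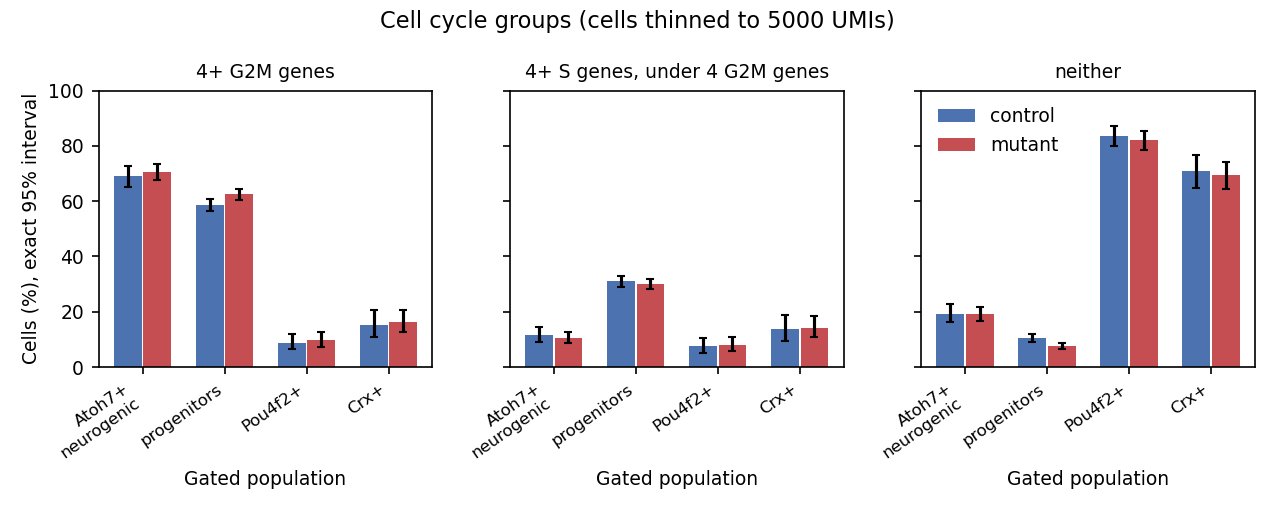
Share of cells (vertical axis, percent, from 0) in each cell cycle group for the 4 populations, with a bar per library and the exact 95% interval of counting error. Neurogenic cells are mostly in the G2M group (69.1% and 70.5%) and at a lower share in the S group (11.6% and 10.5%) than progenitors (31.0% and 29.9%), while most Pou4f2-positive and Crx-positive cells reach neither list.

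Single genes were distributed differently over these cell cycle groups. Neurog2 was at 1403 CPM in G2M cells, 733 CPM in S cells and 378 CPM in cells of neither group in the control, and at 1325, 696 and 368 CPM in the mutant. Olig2 followed the same order, at 161, 50.8 and 21.4 CPM and at 159, 50.9 and 19.2 CPM. Foxn4, a factor of amacrine and horizontal progenitors, was at 129, 59.9 and 1.71 CPM and at 138, 38.0 and 5.82 CPM. Each of these was lowest in cells of neither group, in both libraries. Tubb3 had the opposite order, at 342, 423 and 2679 CPM in the control and 376, 757 and 2101 CPM in the mutant. Neurod4 was at 15.6, 18.2 and 125 CPM and at 18.3, 36.2 and 198 CPM, and Cdkn1c, the p57 inhibitor of cyclin-dependent kinases, was at 156, 180 and 738 CPM and at 138, 553 and 547 CPM. Atoh7 itself was lowest in S cells, at 7855, 4996 and 6824 CPM and at 6999, 3460 and 7097 CPM. Hes5 was at 959, 1350 and 1630 CPM in the control and 1130, 863 and 1867 CPM in the mutant, so it was highest in cells of neither group.

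Detection of Neurog2 and Ptf1a divided the neurogenic cells. These divisions were chosen after values were seen, and Neurog2 is one of the 6 genes of the rule, so the values are a description. Ptf1a had a UMI in 4.49% of Neurog2-positive and 33.2% of Neurog2-negative control cells, and in 6.53% and 31.5% of mutant cells. Neurog2 without Ptf1a was seen in 383 control cells (61.7%, 57.7 to 65.5) and 573 mutant cells (60.6%, 57.4 to 63.7), Ptf1a without Neurog2 in 73 (11.8%) and 105 (11.1%), both in 18 (2.90%) and 40 (4.23%), and neither in 147 (23.7%) and 228 (24.1%). The shares of the 4 sets were close between the libraries. Absence of a UMI in a cell of 5000 UMIs does not show that the gene is off.

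Cells with Neurog2 and no Ptf1a differed from cells with Ptf1a and no Neurog2 in several genes. In the G2M group were 81.7% of them in the control and 82.0% in the mutant. Neurod1 had a UMI in 82.5% and 82.4%, Otx2 in 71.5% and 74.7%, Olig2 in 47.5% and 50.8%, Insm1 in 76.2% and 74.7% and Dll4 in 37.9% and 41.7%. In cells with Ptf1a and no Neurog2 the same genes were found in 1.37% and 10.5% (Neurod1), 11.0% and 6.67% (Otx2), 0% and 0% (Olig2), 11.0% and 11.4% (Insm1) and 2.74% and 2.86% (Dll4). The 0 of 73 and 0 of 105 cells for Olig2 have exact upper limits of 4.93% and 3.45%. Hes5 ran against this pattern, at 557 and 684 CPM in the Neurog2 cells and 2738 and 2951 CPM in the Ptf1a cells.

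Cells with Ptf1a and no Neurog2 mostly reached neither cell cycle list, at 68.5% of them in the control and 70.5% in the mutant. Prdm13, an amacrine factor acting with Ptf1a, had a UMI in 31.5% and 34.3% of them, compared with 1.04% and 0.175% of the Neurog2 cells and 0.581% and 1.04% of erythroid cells. Krt73 was found in 34.2% and 29.5% compared with 0.261% and 0.349%, and Neurod4 in 41.1% and 35.2% compared with 9.14% and 12.6%. Tubb3 had a UMI in 94.5% and 98.1% of the Ptf1a cells and in 60.1% and 61.4% of the Neurog2 cells. Sox11, a factor of newborn neurons, was at 3011 and 2693 CPM compared with 1267 and 1149 CPM. Atoh7 was at similar levels in both kinds of cell, at 7483 and 7130 CPM with Ptf1a and 7868 and 7098 CPM with Neurog2.

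Cells with neither gene resembled the Ptf1a cells in some genes. Gal was at 1087 and 851 CPM in them, compared with 51.2 and 77.3 CPM in the Neurog2 cells and 948 and 663 CPM in the Ptf1a cells. Insm2 had a UMI in 38.1% and 38.2% of them, 7.83% and 8.20% of the Neurog2 cells and 35.6% and 27.6% of the Ptf1a cells. Dlx2 was found in 49.0% and 53.1%, compared with 32.4% and 32.8% of the Neurog2 cells and 45.2% and 41.0% of the Ptf1a cells. Hes1 was found in 42.9% and 41.7%, compared with 14.6% and 17.1% of the Neurog2 cells and 39.7% and 38.1% of the Ptf1a cells. Isl1 was found in 12.9% and 12.7%, compared with 2.09% and 2.62% of the Neurog2 cells and 2.74% and 1.90% of the Ptf1a cells. In the G2M group were 63.9% and 70.6%, fewer than among the Neurog2 cells and more than the 23.3% and 17.1% among the Ptf1a cells. Their median depth of 12186 and 12305 UMIs was above the 11122 and 10624 UMIs of the Neurog2 cells and the 8184 and 8829 UMIs of the Ptf1a cells.

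**Figure D4:**
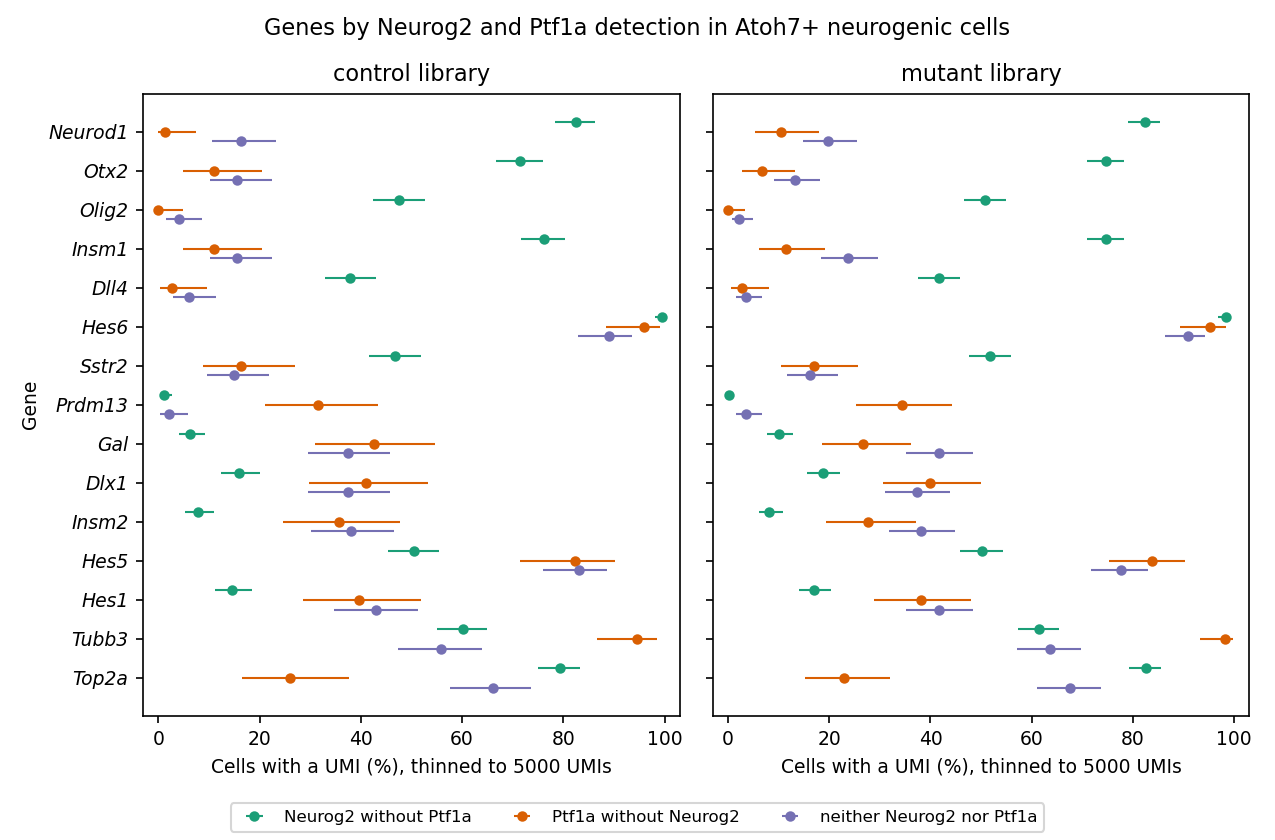
Share of Atoh7-positive neurogenic cells with a UMI of each gene (horizontal axis, percent, cells thinned to 5000 UMIs) by detection of Neurog2 and Ptf1a, with the exact 95% interval of counting error, in the control library (left) and the mutant library (right). Neurod1, Otx2, Olig2 and Dll4 lie far to the right in cells with Neurog2 (82.5% and 82.4% for Neurod1), Prdm13 in cells with Ptf1a (31.5% and 34.3%), and the order of the sets is alike in both panels for these genes.

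The level of Atoh7 went with the levels of other genes. When the thinned cells were divided by Atoh7 UMIs into low, middle and high groups of about equal size, a division also chosen after values were seen and made on a gene of the rule, so that the low group holds the cells at its threshold, the median was 6, 39 and 69 UMIs in the control and 7, 35 and 64 in the mutant. Fgf15, a progenitor growth factor, was at 583, 193 and 97.4 CPM in the low, middle and high groups of the control and at 589, 271 and 119 CPM in the mutant. Hes1 was at 193, 95.2 and 41.6 CPM and at 191, 86.3 and 60.5 CPM. Both were highest where Atoh7 was lowest, in both libraries. Penk was at 47.8, 196 and 287 CPM and at 61.7, 242 and 269 CPM, and Sstr2 at 39.9, 155 and 245 CPM and at 40.2, 185 and 250 CPM. Btg2 was at 392, 935 and 1113 CPM and at 402, 911 and 1118 CPM. The neuropeptide gene Penk, the receptor gene Sstr2 and Btg2 were thus higher where Atoh7 was higher. Hes5 differed from Hes1, at 661, 1248 and 1496 CPM and at 674, 1195 and 1954 CPM. The S group held 20.8% and 19.2% of the low group and 7.11% and 4.93% of the high group.

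Last, the neurogenic cells were compared between the genotypes. With 1 library per genotype and a difference in sex, the values cannot show whether loss of Myrf goes with a change in retinal neurogenesis. Of 9793 genes with at least 100 UMIs, 125 were at least 1.5-fold higher in the mutant (1.28%) and 81 at least 1.5-fold lower (0.827%), and the median log2 ratio was -0.04. Restricted to Xist-positive cells that lacked Y-linked transcripts, 630 control and 299 mutant cells, 91 of 8394 tested genes were higher and 225 lower. The median log2 ratio was then -0.08. Of the calls above that could still be tested, 35 of 44 higher and 34 of 47 lower ones were again past the fold. Outside the genes of the rule, none of the 7 tested Notch ligand and processing genes and none of the 9 receptor and effector genes was past 1.5-fold, with median log2 ratios of -0.09 and 0.05. Dll4 had a ratio of 0.926 (0.838 to 1.02), Notch1 1.08 (1.02 to 1.15), Rbpj 1.03 (0.986 to 1.08) and Hes5 1.12 (1.09 to 1.15). Of 7 proneural genes outside the rule, whose median was -0.02, Neurod4 was higher, at 1.52 (1.30 to 1.77), and Bhlhe22, a bHLH factor of amacrine and ganglion cell subtypes, was at 0.670 (0.596 to 0.754), just inside the fold. Olig2 was at 0.987 (0.911 to 1.07), Ptf1a at 1.01 (0.928 to 1.10) and Neurod1 at 0.952 (0.912 to 0.993).

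Ganglion cell and neuronal genes had median ratios slightly below 1 when all neurogenic cells were compared. Of 14 ganglion cell genes, Isl1 (44.1 CPM in the control and 28.6 in the mutant, ratio 0.648, 0.557 to 0.755) was 1 of 2 past 1.5-fold, with 51.7% of its control UMIs and 37.9% of its mutant UMIs in 5 cells. Of all tested genes 0.827% were past 1.5-fold lower. In this list 8 genes had intervals below 1 and none had one above 1, and the median log2 ratio was -0.22. Of 17 neuronal genes Ina, a neurofilament gene, was past the fold (41.1 and 26.6 CPM, ratio 0.648, 0.553 to 0.760), but 62.9% and 52.6% of its UMIs came from 5 cells of each library. In this list 8 genes had intervals below 1, and the median was -0.20. That median was 0.12 when only Xist-positive cells that lacked Y-linked transcripts entered, whereas the ganglion cell median was -0.10. Of 23 S phase genes none was past the fold, 13 had intervals below 1, and the median was -0.19. Over all tested genes 641 intervals lay above 1 and 1343 below. The 20 G2M genes had a median of -0.03 and none past the fold. Of 18 progenitor genes, Lin28b (16.0 and 9.31 CPM, ratio 0.581, 0.446 to 0.757) and Hmga2 (20.2 and 12.9 CPM, ratio 0.639, 0.508 to 0.804), both of early progenitors, were lower. No gene was past the fold among 7 Id and E-protein, 5 photoreceptor, 6 amacrine and horizontal, 11 cell cycle exit, 11 p53 target, 5 dissociation stress, 9 Wnt, TGFβ and BMP response and 2 Myrf-related genes.

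By the rule for naming genes, 12 higher and 12 lower genes were taken by size of ratio after Xist, Y-linked, haemoglobin and mitochondrial genes and genes whose UMIs came mostly from 5 cells were set aside. The largest higher ratios were those of Rps27rt (281 and 1002 UMIs, ratio 2.42, 2.11 to 2.77) and Mef2c, a MADS-box factor (29 and 102 UMIs, ratio 2.38, 1.56 to 3.73, with 48.0% of the mutant UMIs in 5 cells). Then came Rsph10b, Rpl36a-ps1, Myadm, Usp50, AC149090.1, Gm2000, S100a13, Ccdc73, Krt12 and Car2, from 2.12 down to 1.89. The lower genes were led by Gm14296 (107 and 27 UMIs, ratio 0.171, 0.108 to 0.263) and Tsix, antisense to Xist (352 and 147 UMIs, 0.283). Gm14305, Gm6710, Gm14418, Mid1, Grm7, 4933404O12Rik, Rpgrip1, Ntrk2, Clmp and Cdk5rap1 followed, from 0.307 to 0.559. Several belong to near-identical families, such as the Gm14296, Gm14305, Gm6710 and Gm14418 group, Rps27rt and Rpl36a-ps1, whose reads the counting may have split, and their ratios are uncertain. The strand used in counting is not given in the sources used here, so Tsix and Xist cannot be told apart. In progenitors of the same libraries the ratio was 2.24 (2.11 to 2.39) for Rps27rt, 0.184 (0.146 to 0.231) for Gm14296, 0.523 for Mid1 and 0.618 for Rpgrip1. For 8 of the 24 genes the interval in progenitors did not overlap that in neurogenic cells: Mef2c (0.841 in progenitors, 0.718 to 0.986), Ntrk2 (1.20, 1.07 to 1.35), Rsph10b, Myadm, S100a13, Krt12, Grm7 and 4933404O12Rik. Over all genes compared in this way 6.29% did not overlap, and the 24 genes had been picked for extreme ratios in the neurogenic cells. Restricted to Xist-positive cells that lacked Y-linked transcripts, the log2 ratio of Mid1, an X-linked gene, was -0.11 rather than -1.05, that of Tsix -0.21 rather than -1.82 and that of Rpgrip1 -2.79 rather than -0.89.

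**Figure D5:**
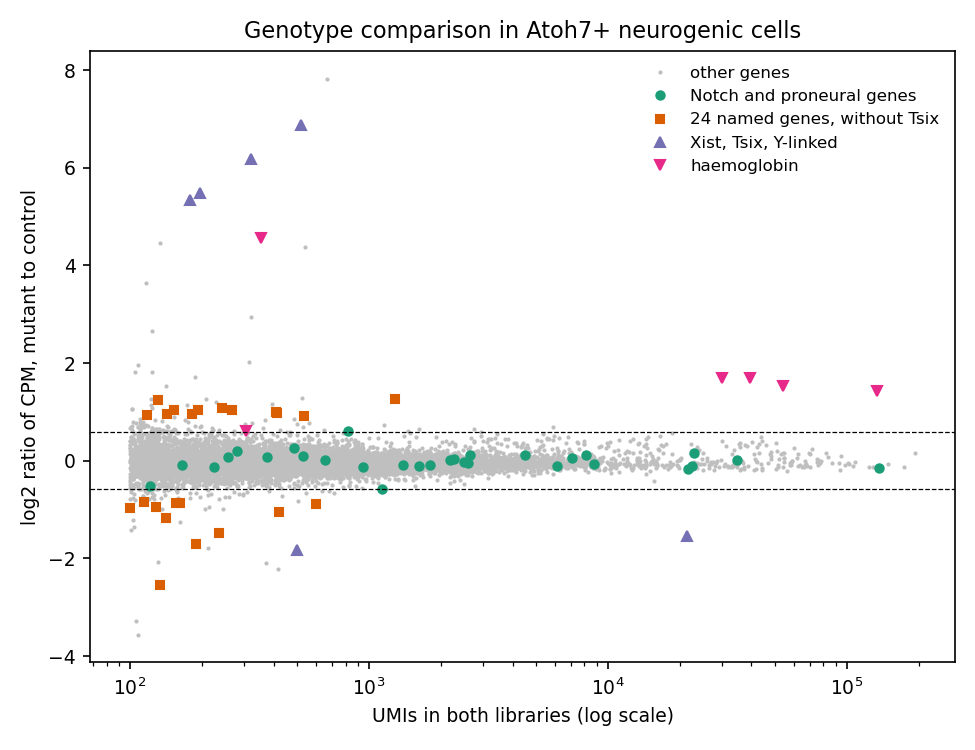
Log2 ratio of mutant to control CPM (vertical axis) against UMIs of both libraries (horizontal axis, log scale) for the 9793 genes tested in neurogenic cells, with dashed lines at 1.5-fold. Notch and proneural genes (green) lie between the lines, Bhlhe22 (0.670) next to the lower one, with Neurod4 at 1.52-fold the 1 past the upper line, while all 6 haemoglobin genes (pink) lie above it and Xist and Tsix (purple) below the lower line. Y-linked genes (purple), with 0 UMIs in the control, are drawn at their lower bound against a floor of 3 counts, and orange squares are the other genes named by size of ratio.

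Markers of other cell types also differed between the libraries in these cells. Over all tested genes 1.28% were past 1.5-fold higher and 0.827% lower. All 6 tested haemoglobin genes were higher in the mutant, with a median log2 ratio of 1.61, and their sum was 6235 (control) and 17910 CPM (mutant), although the median was 3 UMIs per cell in both. The erythroid gate, haemoglobin of at least 20% of UMIs, held 3 and 14 of the neurogenic cells, and outside it the sums were 612 and 2273 CPM. Of 9 mesenchymal genes none was past the fold, and their median of 0.08 was 0.55 after thinning, 0.73 without cells of either gate and -0.64 in Xist-positive cells that lacked Y-linked transcripts, while 22 and 26 cells were in the mesenchymal gate. Cdh5, Cldn5, Tyrobp, C1qc, Tyrp1 and Cryab had a large share of their UMIs in a few cells: the 5 richest cells held between 42.4% (Cldn5, control) and 100% (Cdh5, control) in each library. Endothelial Cdh5 (1.51 and 9.57 CPM) and Cldn5 (11.6 and 25.8 CPM) were 2 of 4 endothelial genes higher. Of 3 immune genes, Tyrobp was higher (5.80 and 13.9 CPM) and C1qc lower (8.20 and 3.08 CPM), of 3 pigment epithelial genes Tyrp1 was lower (8.32 and 3.25 CPM) while Dct was at 46.7 and 57.1 CPM and Pmel at 80.7 and 70.3 CPM, and of 2 lens and surface genes Cryab was higher (3.41 and 9.82 CPM). Xist was lower (1802 and 616 CPM) and 4 of 4 Y-linked genes were higher, with 0 UMIs in the control. The part of these cells and of free RNA in the genotype differences was not tested. Without cells of either gate, 133 genes were higher and 58 lower.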

How the data were processed

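Embryonic mouse eye cups (e15.5) were dissociated with papain and sequenced with a 10x Genomics 3′ kit, as 1 library of 3 pooled eye cups per genotype. The authors aligned reads to mm10 and made the deposited UMI counts per gene and barcode, which are filtered to barcodes called as cells and are not normalized (Cell Ranger 7.1.0 and Seurat 4.1.1, per the labels). The matrix header names another software version than these labels do. All 31053 genes of the files were read. Cells with at least 200 genes, at least 2000 UMIs and at most 15% mitochondrial UMIs were kept. The first and last of these filters alone leave 11942 control and 13018 mutant barcodes. The study's methods describe a limit on cells over 2000 counts as a doublet filter, which was not applied because 9722 and 10708 of these barcodes lie above it.

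For each population and library, UMIs of all its cells were added up and scaled to CPM. Ratios carry exact conditional binomial intervals and shares carry Clopper-Pearson intervals (95%). With 1 library per genotype there was no test, and cells were not treated as replicates. Genes with at least 100 UMIs over both groups compared were called past a fold of 1.5 (genotypes) or 2 (populations). Genes of 24 lists could be named, together with the 12 largest and 12 smallest ratios of each comparison. For the genotypes the interval had to exclude 1, and Xist, Y-linked, haemoglobin and mitochondrial genes were set aside, as were genes with 50% or more of their UMIs in the 5 richest cells. The cells, lists and tests were chosen with earlier results of these data known. Shares of cells with a UMI and cell cycle groups were computed after thinning each cell to 5000 UMIs, and shallower cells were left out. Doublets were not removed. Scrublet's automatic threshold marked 366 of 11942 control barcodes and 0 of 13018 mutant barcodes and was not used, and the cells with the highest 5% of scores were left out as an alternative. The script was tested on simulated counts of the genotype comparison over 9756 genes: all 50 genes raised and 45 lowered 2-fold, and all 50 raised and 40 lowered 3-fold, were recovered, and 0.376% of unchanged genes were past 1.5-fold. These counts held counting error only, without differences between cells, embryos or sexes. The 0.376% is therefore not an error rate for the comparison of the libraries. Promoters came from RefSeq (GRCm38.p6). Python 3.11.15, numpy 2.4.6, scipy 1.17.1, pandas 2.3.3, scanpy 1.11.5 and matplotlib 3.10.9 were used, with R 4.3.3 and edgeR 4.0.16 for scaling factors only. A few genes are not reported here.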

Additional observations from a re-analysis of the deposited data

How the results depend on the processing

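Of 728 values recomputed under other settings, 669 stayed within their interval or within 1.5 times their count and 59 moved, and 0 of these values past a fold changed direction. Ratios of single genes to progenitors were not among them. With progenitors restricted to cells with retinal genes, not all of those ratios kept their direction in the mutant. List medians, which were not called, had another sign than reported in 40 of 204 instances, over 12 lists. No paired analysis was possible because each genotype had 1 library, and for the same reason no library could be left out. The automatic Scrublet call was not run as an alternative, since it marked 0 mutant cells. The share of neurogenic cells among all filtered cells moved to a ratio of 1.115 without cells of the erythroid and mesenchymal gates. Between the genotypes, 278 genes were higher and 199 lower at a minimum of 50 UMIs, 605 and 402 at 20 UMIs and 1277 and 830 at 1 UMI in each library, as more genes of few UMIs entered. Thinning gave 70 higher and 62 lower genes of 7354 tested, and Xist-positive cells lacking Y-linked UMIs gave 91 higher and 225 lower of 8394. Scaling by the median of ratios gave 157 higher and 66 lower genes, and TMM factors gave 155 and 68. The haemoglobin median log2 ratio was 1.65 with the median of ratios, 1.647 with TMM, 1.772 with mean CPM per cell, 1.72 thinned, 2.836 in Xist-positive cells, 1.521 at a mitochondrial limit of 5%, 2.093 at 3 or more Atoh7 UMIs, 1.774 without the top 5% of Scrublet scores and 1.195 without the gated cells. The proneural median, genes of the rule included, was 0.01555 with mean CPM per cell, 0.02314 thinned and 0.0708 in Xist-positive cells. In Xist-positive cells the progenitor median was -0.2897, the amacrine and horizontal -0.3004, the neuronal 0.121, the G2M -0.1459 and the mesenchymal -0.6359. The mesenchymal median was 0.5532 thinned, 0.7234 without the top Scrublet scores and 0.7272 without the gated cells. The cause of these shifts was not tested. With progenitors restricted to cells with retinal genes, a setting added after the data were seen, 687 control and 798 mutant genes were lower. At 3 or more genes of a list the G2M group held 73.59% and 74.63% and neither group 14.17% and 14.16%, and at 6 or more genes 63.61% and 64.48%, and 23.83% and 24.31%. Genes of fewer than 100 UMIs were not compared, and embryo, library and sex cannot be told apart from genotype.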
